A study of Rattus norvegicus with 12 samples.

Results

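The insulin granule exocytosis genes are 43 rat genes for the proteins that dock, prime and fuse the insulin granule, chosen by name from the known machinery, of 28727 named genes in the table. All 43 were in the table, and 42 had enough counts to be tested. Sytl2 had no counts in any library, where the limit that a count of 0 allows (3 counts) is 0.116 CPM (the count relative to the total of its library) in the shallowest library and 0.0496 in the deepest. RNA was sequenced from INS-1 832/13 cells, an insulin-secreting line derived from a rat insulinoma, which had been given an adenovirus for GFP or for mouse ChREBPβ tagged with mCherry. ChREBPβ is the short, constitutively active form of the carbohydrate response-element binding protein. The medium held 2 or 11 mM glucose for 48 h in the study's account of this RNA sequencing. Its general adenovirus methods instead give a longer time in the stated glucose, after a first period with the virus. For each of the 4 groups 3 libraries were made (replicates a, b and c), 12 in all. All groups carried a virus, so no group shows the cells without one, and a single cell line stands for the β-cell. The comparisons ask what ChREBPβ changed at each glucose level, and what glucose changed under each virus.

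A β-cell secretes insulin when calcium enters and granules at the plasma membrane fuse. Fusion is driven by SNARE proteins, with Vamp2 on the granule pairing with Snap25 and a syntaxin on the plasma membrane, under the guidance of Sec1/Munc18 proteins. Rab3 and Rab27 GTPases and their effectors bring granules to the membrane, Munc13, RIM and CAPS proteins prime them, complexins and calcium-binding synaptotagmins couple fusion to calcium, and Nsf with its adaptor takes the spent SNARE complexes apart.

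Library totals ranged from 25754488 to 60531215 counts. The ChREBPβ library at 2 mM from replicate a held 28595982 counts, beside 57726412 and 57313995 in the other two of its group. Levels below are CPM scaled with TMM factors, and a fold change is ChREBPβ over GFP, or 11 over 2 mM glucose. An entry of the table named ChREBPb had 73.2, 77.95 and 82.2 CPM for GFP and 90.7, 89.6 and 90.1 for ChREBPβ at 2 mM, and 64.7, 73.3 and 66.1 against 98.2, 84.3 and 81.4 at 11 mM. It was higher with ChREBPβ at both glucose levels without overlap, by log2 0.21 ± 0.065 and 0.37 ± 0.064. The entry for Mlxipl, the gene of ChREBP, went the other way: it fell at 2 mM, from 256 ± 18.8 CPM for GFP to 205 ± 6.63 for ChREBPβ (log2 -0.33 ± 0.052, edgeR adjusted p = 2.03e-05), and was at 207 ± 5.32 against 188 ± 10.97 at 11 mM (log2 -0.14 ± 0.051, under 1.2-fold). How far reads of the viral cDNA, which is of mouse origin, were counted in either entry is not given in the sources used here, so the overexpression cannot be read from them. The labelled cell type could be checked on 8 β-cell markers, of which 7 were detected and G6pc2 was under 1 CPM in every library. Their summed level was 14358 to 16233 CPM with GFP and 5965 to 6124 with ChREBPβ at 2 mM, and 10911 to 11969 against 5057 to 5445 at 11 mM, and Ins1 held most of it. Ins1, Ins2, Iapp, Pdx1, Nkx6-1 and Mafa were each lower with ChREBPβ at both glucose levels without overlap, whereas Slc2a2, the glucose transporter GLUT2, was higher, at 437 ± 13.8 CPM for GFP against 618 ± 18.2 at 2 mM and 489 ± 16.1 against 675 ± 10.2 at 11 mM. Of 3 α-cell markers only Gcg was above 1 CPM, and it carried the summed α-cell level of 1589 to 1719 CPM with GFP and 429 to 502 with ChREBPβ. The δ-cell, PP-cell, fibroblast and endothelial markers stayed under 1 CPM in every library, the macrophage markers (Ptprc listed at 0 counts) summed to 1.11 CPM at most, and the acinar ones to 6.78 at most. Of the duct markers Krt7 was at 103 to 162 CPM, and Krt19 was near 0. The part of these shifts in the results below was not tested, and in RNA from whole cultures fewer cells of a type and less RNA per cell cannot be told apart.

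Exocytosis genes were more often lower than higher with ChREBPβ. A gene is said to rise or fall where edgeR's quasi-likelihood test gave a Benjamini-Hochberg adjusted p under 0.05 over all 14669 genes tested and the change was at least 1.2-fold. At 2 mM, 19 of the 42 tested exocytosis genes fell (45.2%) and 3 rose (7.14%), beside 23.2% and 21.0% of all tested genes. The median log2 fold change of the 42 was -0.24 (all genes -0.017), and single genes lay between -1.78 and 0.84. At 11 mM, 16 fell (38.1%) and 3 rose (7.14%), beside 19.1% and 14.3% of all genes, with a median of -0.18 (all genes -0.017) and a range from -1.74 to 0.60. All 16 genes that fell at 11 mM also fell at 2 mM, in comparisons that share no library. These were Snap25, Vamp3, Stxbp2, Syt3, Syt9, Doc2b, Rims1, Cadps2, Rab3a, Rab3b, Rab3c, Rab3d, Rab27a, Rab27b, Sytl4 and Ptprn. The same overlap was not counted over all genes, so it is not shown to be particular to this set. Vamp8, Stxbp3 and Syt13 fell at 2 mM and did not pass at 11 mM. Syt4 and Rims3 rose at both levels, Sytl5 passed at 2 mM alone and Syt7 at 11 mM alone, and no gene passed in opposite directions. Most changes were small: 2 genes at 2 mM (Doc2b and Rab27a) and 1 at 11 mM (Doc2b) reached 2-fold (4.76% and 2.38%, beside 9.93% and 6.76% of all genes). With no minimum on the fold change, 35 of the 42 (83.3%) passed at 2 mM and 29 (69.0%) at 11 mM, beside 58.7% and 49.7% of all genes. The plot of fold changes by role shows the 2 glucose levels side by side.

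**Figure D1:**
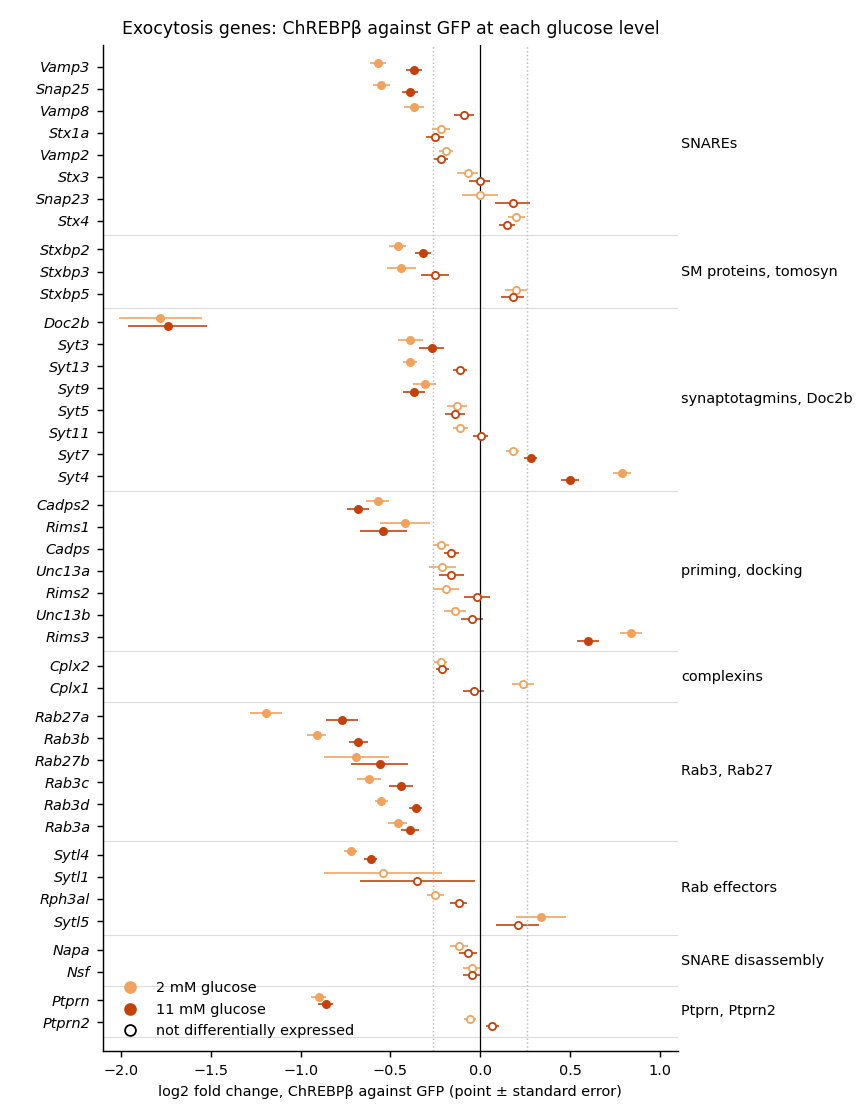
Log2 fold change of ChREBPβ against GFP (x axis, point ± standard error, 3 libraries a group) for the 42 tested exocytosis genes, grouped by role, at 2 mM (light) and 11 mM glucose (dark). Filled points passed the test and the minimum of 1.2-fold, which the dotted lines mark on the log2 scale. All 6 Rab3 and Rab27 genes lie to the left of the dotted line at both levels, Doc2b lies farthest left at -1.78 and -1.74, and Syt4 and Rims3 lie to the right.

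Promoters were read for the 35 exocytosis genes listed in the RefSeq promoter table (assembly GRCr8), from 250 bases before to 50 after the start. ChREBP binds DNA with its partner Mlx at carbohydrate response elements, which hold a pair of E-boxes set 5 bases apart. In the shares that follow, the set is counted by gene and the whole table by promoter entry. A gene can have several entries, as do Sytl1 and Unc13b in this set. The E-box CACGTG, which reads the same on both strands, was found in 4 of the 35 (11.4%) and in 6.42% of all 33469 promoters of the table. They are shown because they are the only 4 of the set with the motif, 5′ to 3′ on the strand of the gene and with the E-boxes in capitals: Stxbp2 at chr12:6487076-6487375, plus strand, Cadps2 at chr4:53274955-53275254, minus strand, Napa at chr1:85915185-85915484, plus strand and Nsf at chr10:89357334-89357633, minus strand.
Stxbp2: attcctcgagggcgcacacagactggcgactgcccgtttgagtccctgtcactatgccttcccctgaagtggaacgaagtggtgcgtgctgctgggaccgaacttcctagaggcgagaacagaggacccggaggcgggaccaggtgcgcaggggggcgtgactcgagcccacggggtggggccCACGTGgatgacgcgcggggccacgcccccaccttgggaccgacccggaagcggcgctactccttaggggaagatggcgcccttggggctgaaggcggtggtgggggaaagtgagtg
Cadps2: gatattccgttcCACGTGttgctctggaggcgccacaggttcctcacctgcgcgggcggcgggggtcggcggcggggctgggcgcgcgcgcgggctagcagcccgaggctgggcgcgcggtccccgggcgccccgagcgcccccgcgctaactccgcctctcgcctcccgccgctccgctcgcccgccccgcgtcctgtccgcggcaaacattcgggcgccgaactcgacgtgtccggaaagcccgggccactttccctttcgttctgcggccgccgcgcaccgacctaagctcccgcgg
Napa: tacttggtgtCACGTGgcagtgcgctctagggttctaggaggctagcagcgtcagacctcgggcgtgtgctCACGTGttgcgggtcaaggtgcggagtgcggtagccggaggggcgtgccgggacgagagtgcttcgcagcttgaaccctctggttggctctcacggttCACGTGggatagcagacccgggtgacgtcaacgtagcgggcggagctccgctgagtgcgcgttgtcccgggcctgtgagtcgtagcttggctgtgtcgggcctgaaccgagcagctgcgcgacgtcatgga
Nsf: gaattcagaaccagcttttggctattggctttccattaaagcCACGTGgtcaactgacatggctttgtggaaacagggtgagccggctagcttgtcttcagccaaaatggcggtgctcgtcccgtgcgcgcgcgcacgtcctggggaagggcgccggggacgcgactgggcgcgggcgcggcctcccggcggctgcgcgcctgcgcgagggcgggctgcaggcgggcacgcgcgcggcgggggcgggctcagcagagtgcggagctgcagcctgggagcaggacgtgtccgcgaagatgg
The E-box began 67 bases before the start in Stxbp2, 238 in Cadps2 and 208 in Nsf, and Napa held 3, at 240, 179 and 81 bases. Only the Stxbp2 window also held a pair of E-boxes 5 bases apart when 2 mismatches were allowed in all, beginning at the same base, a pattern present in 0.953% of all promoters. Stxbp2 and Cadps2 fell with ChREBPβ at both glucose levels and Napa and Nsf did not pass in any comparison, so genes with and without a change both carried the motif. A match describes these letters in this window and nothing more.

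The Rab3 and Rab27 GTPases sit on the granule surface and lead it to its docking site. All 6 of them fell with ChREBPβ at 2 mM and at 11 mM, with medians of -0.65 and -0.50 on the log2 scale. Rab27a, the GTPase that recruits granuphilin to insulin granules, stood at 23.1, 26.1 and 21.8 CPM in the GFP libraries at 2 mM, 14.6, 14.3 and 12.8 in those at 11 mM, 9.24, 10.03 and 11.6 in the ChREBPβ libraries at 2 mM and 8.58, 7.96 and 7.81 in those at 11 mM. No ChREBPβ library reached the lowest GFP library. ChREBPβ changed it by log2 -1.19 ± 0.089 at 2 mM (2.28-fold lower, adjusted p = 7.16e-10 by edgeR) and -0.77 ± 0.091 at 11 mM (adjusted p = 6.33e-07). Its close paralog Rab27b was rarer, on 35 to 134 counts a library, at 2.39, 2.68 and 2.47 CPM in the GFP libraries at 2 mM, 2.96, 3.05 and 2.56 in those at 11 mM, 1.25, 1.46 and 1.88 in the ChREBPβ libraries at 2 mM and 2.05, 1.93 and 1.81 in those at 11 mM. The groups of the 2 viruses did not overlap at either glucose level, and the gene fell by 1.61-fold at 2 mM (log2 -0.69 ± 0.18, adjusted p = 0.00246 by edgeR) and by 1.48-fold at 11 mM (adjusted p = 0.0065).

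Of the 4 Rab3 genes, Rab3b changed most at both glucose levels. It was at 66.7, 65.6 and 67.5 CPM in the GFP libraries at 2 mM, 39.4, 37.2 and 37.4 in those at 11 mM, 35.8, 33.7 and 37.1 in the ChREBPβ libraries at 2 mM and 22.5, 24.8 and 23.6 in those at 11 mM. Both the virus and the higher glucose went with lower counts, and the 3 libraries with both were the lowest. The change under ChREBPβ came to log2 -0.91 ± 0.052 at 2 mM (adjusted p = 1.05e-11 by edgeR) and -0.68 ± 0.053 at 11 mM (adjusted p = 1.46e-09). Rab3c was at 29.2, 29.7 and 26.7 CPM in the GFP libraries at 2 mM, 22.2, 23.5 and 20.96 in those at 11 mM, 20.2, 17.3 and 18.4 in the ChREBPβ libraries at 2 mM and 16.5, 15.8 and 16.6 in those at 11 mM. It fell, at log2 -0.62 ± 0.068 at 2 mM and -0.44 ± 0.067 at 11 mM (edgeR adjusted p = 1.81e-07 and 1.77e-05). Rab3d, a Rab3 form of several secretory cell types, was at 454, 465 and 482 CPM in the GFP libraries at 2 mM, 389, 389.6 and 378 in those at 11 mM, 321, 311 and 327 in the ChREBPβ libraries at 2 mM and 300.4, 305 and 299 in those at 11 mM. Here too the libraries of the 2 viruses did not overlap at the same glucose, with log2 fold changes of -0.55 ± 0.038 and -0.36 ± 0.038 (edgeR adjusted p = 1.96e-10 and 1.57e-07). Rab3a, the form best known from synaptic vesicles, was at 60.8, 63.4 and 65.4 CPM in the GFP libraries at 2 mM, 53.7, 50.6 and 56.1 in those at 11 mM, 46.4, 43.4 and 48.4 in the ChREBPβ libraries at 2 mM and 40.00, 40.6 and 41.6 in those at 11 mM. It fell by 1.37-fold at 2 mM and 1.31-fold at 11 mM (edgeR adjusted p = 3.75e-07 and 3.38e-06). In RefSeq (GRCr8) Rab3a overlaps Mpv17l2, which moved the other way, with log2 fold changes of 0.36 and 0.32. How reads shared between Rab paralogs, or between overlapping genes, were counted is not given in the sources used here.

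**Figure D2:**
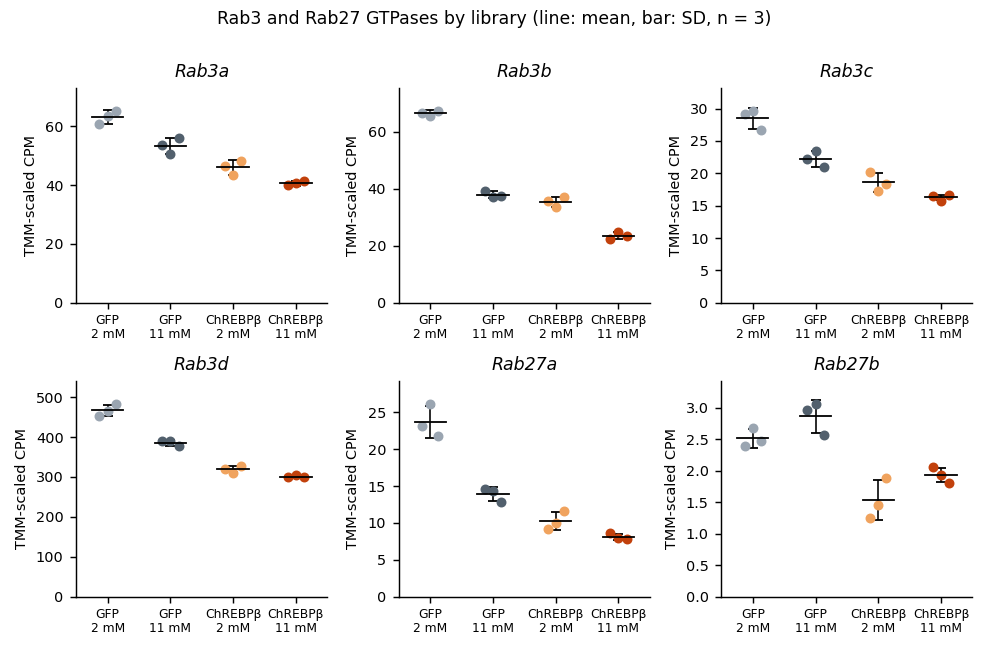
TMM-scaled CPM (y axis, linear, from 0) of the 6 Rab3 and Rab27 genes in each of the 12 libraries (points), with the group mean (line) and SD (bar, n = 3), by virus and glucose (x axis). In every panel the 3 ChREBPβ libraries lie under the 3 GFP libraries at the same glucose, and Rab3b and Rab27a also fall from 2 to 11 mM under each virus.

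Among 5 Rab effectors, 1 changed at both glucose levels. Sytl4 (granuphilin), which binds Rab27a and the syntaxin complex to dock granules, was at 224, 231 and 225 CPM in the GFP libraries at 2 mM, 192, 196 and 199 in those at 11 mM, 138, 135 and 138 in the ChREBPβ libraries at 2 mM and 128, 128 and 128 in those at 11 mM. The replicates lay close together and the viruses far apart, 1.65-fold lower at 2 mM (log2 -0.72 ± 0.036, adjusted p = 1.38e-12 by edgeR) and 1.53-fold lower at 11 mM (log2 -0.61 ± 0.036, adjusted p = 2.25e-11). Rph3al (Noc2), a Rab effector needed for regulated secretion, was at 198, 209 and 212 CPM in the GFP libraries at 2 mM, 154, 139 and 144 in those at 11 mM, 174, 164 and 181 in the ChREBPβ libraries at 2 mM and 128, 137 and 135 in those at 11 mM. With ChREBPβ it did not overlap GFP at either level, but its log2 fold changes of -0.25 ± 0.048 and -0.12 ± 0.048 were under 1.2-fold. At 2 mM it passed without GFP replicate a (-0.28) or ChREBPβ replicate c (-0.29), and with library totals (-0.35). Sytl5, another synaptotagmin-like Rab27 partner, averaged 6.83 ± 1.42 CPM (SD, n = 3, as for every mean below) with GFP and 8.51 ± 1.101 with ChREBPβ at 2 mM with overlapping groups (log2 0.34 ± 0.14, edgeR adjusted p = 0.04). Its call was lost without ChREBPβ replicate b (adjusted p = 0.229), GFP replicate b (0.106) or GFP replicate c (0.21) at 2 mM, and with scaling by library totals (log2 0.23). Sytl1 had 13 to 39 counts a library, a mean of 0.452 to 0.776 CPM by group, and passed in no comparison.

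Of the 8 SNARE genes, Snap25 and Vamp3 fell at both glucose levels. Snap25, the plasma membrane SNARE that pairs with syntaxin in β-cells and neurons, was at 153, 149 and 145 CPM in the GFP libraries at 2 mM, 133, 142 and 137 in those at 11 mM, 100.1, 107 and 98.4 in the ChREBPβ libraries at 2 mM and 110.2, 103 and 100.3 in those at 11 mM. All 6 ChREBPβ libraries lay under all 6 GFP libraries. It fell, at log2 -0.55 ± 0.047 in 2 mM and -0.39 ± 0.046 in 11 mM glucose (edgeR adjusted p = 5.02e-09 and 6.55e-07). Vamp3, a vesicle SNARE of many cell types, was at 71.8, 70.3 and 71.3 CPM in the GFP libraries at 2 mM, 57.6, 58.2 and 57.3 in those at 11 mM, 49.8, 48.2 and 45.7 in the ChREBPβ libraries at 2 mM and 43.6, 44.7 and 46.1 in those at 11 mM. It fell by 1.49-fold and 1.29-fold (edgeR adjusted p = 1.73e-09 and 1.22e-06). Vamp8, a vesicle SNARE also used by endosomes, was at 64.9, 64.3 and 65.7 CPM in the GFP libraries at 2 mM, 56.4, 50.4 and 51.3 in those at 11 mM, 49.98, 49.4 and 51.4 in the ChREBPβ libraries at 2 mM and 45.6, 51.1 and 51.7 in those at 11 mM. The viruses were apart at 2 mM (log2 -0.37 ± 0.055, adjusted p = 9.18e-06 by edgeR) and overlapped at 11 mM (-0.091 ± 0.054, adjusted p = 0.171).

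Of the SNAREs among the 43 genes, the others did not pass with ChREBPβ. Vamp2, the main granule SNARE, averaged 153 ± 1.55 CPM for GFP and 134 ± 4.18 for ChREBPβ at 2 mM, and 147 ± 1.86 and 126 ± 2.54 at 11 mM, so the viruses differed without overlap, at log2 -0.19 and -0.22, under 1.2-fold. Stx1a, its syntaxin partner on the plasma membrane, behaved alike, at 75.9 ± 3.71 against 65.4 ± 0.635 CPM and 65.1 ± 3.28 against 54.9 ± 1.85 (log2 -0.22 ± 0.05 and -0.25 ± 0.049). Both passed the 1.2-fold minimum at both levels when counts were scaled by library totals instead, at log2 -0.31 and -0.33 for Stx1a and -0.29 and -0.30 for Vamp2. Stx1a also passed at 11 mM without ChREBPβ replicate b, GFP replicate b or GFP replicate c (-0.27 in each). Stx4, the syntaxin that also serves slower secretion, went the other way by log2 0.20 and 0.15, again under 1.2-fold. For Stx3 (-0.069 and -0.0035) and Snap23, the widespread relative of Snap25 (0.00063 and 0.18), the adjusted p was 0.119 or more at both levels.

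The Sec1/Munc18 family guides syntaxins into SNARE complexes. Stxbp2, whose promoter is printed above, was at 108, 109 and 106 CPM in the GFP libraries at 2 mM, 91.6, 83.8 and 94.4 in those at 11 mM, 78.8, 78.5 and 78.1 in the ChREBPβ libraries at 2 mM and 70.8, 72.8 and 72.3 in those at 11 mM. Every ChREBPβ library was under every GFP library, with log2 fold changes of -0.46 ± 0.045 at 2 mM and -0.32 ± 0.045 at 11 mM (edgeR adjusted p = 3.68e-08 and 5.98e-06). Stxbp3, the partner of Stx4, was at 16.6, 18.5 and 17.2 CPM in the GFP libraries at 2 mM, 11.5, 12.5 and 13.7 in those at 11 mM, 13.8, 12.7 and 12.4 in the ChREBPβ libraries at 2 mM and 11.2, 10.3 and 10.2 in those at 11 mM. It fell at 2 mM, at log2 -0.44 ± 0.08 (edgeR adjusted p = 9.58e-05), and at 11 mM its -0.25 ± 0.079 was under 1.2-fold. Without GFP replicate a or ChREBPβ replicate a at 11 mM, Stxbp3 passed there (log2 -0.32 and -0.30), and it passed as well with library totals (-0.34). Stxbp5 (tomosyn), an inhibitor that competes with Vamp2 for SNARE complexes, was at 72.8 ± 1.57 against 83.3 ± 1.71 CPM at 2 mM and 71.5 ± 8.104 against 80.7 ± 3.95 at 11 mM, with log2 values of 0.20 and 0.18 that were under 1.2-fold.

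Among the synaptotagmins and Doc2b, 4 fell and 1 rose at 2 mM, and 3 fell and 2 rose at 11 mM. Doc2b, a calcium-binding protein with paired C2 domains that promotes granule fusion, had the largest change of the whole set. It was at 2.46, 1.89 and 2.02 CPM in the GFP libraries at 2 mM, 2.21, 2.01 and 1.798 in those at 11 mM, 0.573, 0.784 and 0.466 in the ChREBPβ libraries at 2 mM and 0.597, 0.596 and 0.603 in those at 11 mM. It was rare throughout, on 16 to 100 counts a library, and the 6 ChREBPβ libraries did not reach the lowest of the 6 GFP libraries. Doc2b changed by log2 -1.78 ± 0.23 in 2 mM and -1.74 ± 0.22 in 11 mM glucose, 3.44-fold and 3.34-fold lower (edgeR adjusted p = 1.99e-06 and 1.95e-06).

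Syt4, an atypical synaptotagmin that does not act as a calcium sensor, rose with the virus and with glucose. It was at 73.9, 71.1 and 68.6 CPM in the GFP libraries at 2 mM, 98.01, 109 and 104 in those at 11 mM, 121, 127 and 121 in the ChREBPβ libraries at 2 mM and 144, 141 and 154 in those at 11 mM. The 4 groups did not overlap and rose in that order. The rise with ChREBPβ came to log2 0.79 ± 0.05 in 2 mM and 0.50 ± 0.048 in 11 mM glucose (edgeR adjusted p = 5.24e-11 and 4.5e-08). Syt13, another atypical member, was at 212, 220.2 and 215 CPM in the GFP libraries at 2 mM, 172, 160.2 and 167 in those at 11 mM, 164, 161 and 170.2 in the ChREBPβ libraries at 2 mM and 153, 153 and 156 in those at 11 mM. The GFP libraries at 2 mM stood apart from the other 9, and the gene fell with ChREBPβ at 2 mM (log2 -0.39 ± 0.04, edgeR adjusted p = 7.03e-08) while its -0.11 ± 0.039 at 11 mM was under 1.2-fold. Syt3, a calcium sensor, was at 30.5, 31.2 and 36.3 CPM in the GFP libraries at 2 mM, 26.8, 23.6 and 27.2 in those at 11 mM, 25.8, 24.2 and 25.2 in the ChREBPβ libraries at 2 mM and 22.2, 21.5 and 20.9 in those at 11 mM. It fell, at log2 -0.39 ± 0.07 at 2 mM and -0.27 ± 0.069 at 11 mM (edgeR adjusted p = 9.57e-05 and 0.00306). The second of these lay just past 1.2-fold, and was under it without ChREBPβ replicate c (log2 -0.25), GFP replicate a (-0.24) or GFP replicate c (-0.23) at 11 mM.

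Syt7 and Syt9, the calcium sensors most often tied to insulin release, had log2 fold changes of opposite sign. Syt9 fell, with 26.3 ± 1.09 CPM for GFP against 21.2 ± 0.958 for ChREBPβ at 2 mM (log2 -0.31 ± 0.063, adjusted p = 0.000277 by edgeR) and 26.3 ± 1.07 against 20.4 ± 1.16 at 11 mM (log2 -0.37 ± 0.061, adjusted p = 5.01e-05). Syt7 was higher with ChREBPβ at both levels without overlap, at 444 ± 4.02 against 504 ± 5.12 CPM at 2 mM (log2 0.18 ± 0.035, under 1.2-fold) and 405 ± 1.54 against 491 ± 10.6 at 11 mM (log2 0.28 ± 0.035, edgeR adjusted p = 1.41e-06). With library totals the 11 mM value of Syt7 was 0.19, under 1.2-fold. Syt5 and Syt11 lay between -0.14 and 0.003 on the log2 scale and passed at neither level.

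**Figure D3:**
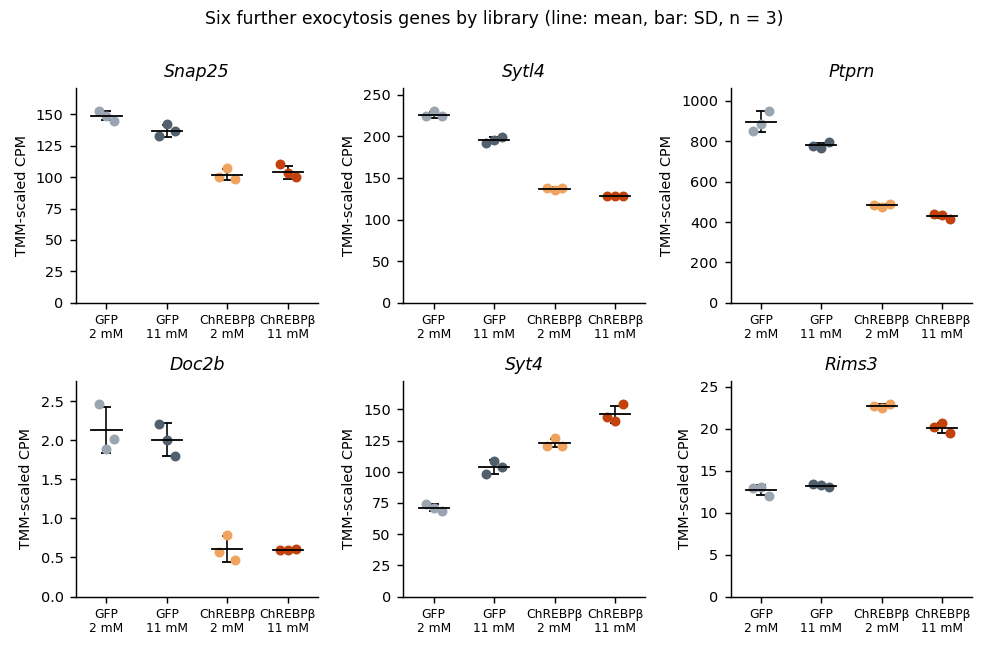
TMM-scaled CPM (y axis, linear, from 0) of Snap25, Sytl4, Ptprn, Doc2b, Syt4 and Rims3 in each of the 12 libraries (points), with the group mean (line) and SD (bar, n = 3), by virus and glucose (x axis). Snap25, Sytl4, Ptprn and Doc2b lie lower in all ChREBPβ libraries than in all GFP libraries, and Syt4 and Rims3 lie higher.

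Of the 7 priming and docking genes, 2 fell and 1 rose at both glucose levels. Rims3, a short member of the RIM family without the Rab-binding part of Rims1 and Rims2, was at 12.9, 13.1 and 11.99 CPM in the GFP libraries at 2 mM, 13.4, 13.3 and 13.01 in those at 11 mM, 22.7, 22.5 and 22.9 in the ChREBPβ libraries at 2 mM and 20.2, 20.7 and 19.5 in those at 11 mM. All ChREBPβ libraries were above all GFP libraries, with log2 fold changes of 0.84 ± 0.063 and 0.60 ± 0.06 (1.79-fold and 1.52-fold, edgeR adjusted p = 6.31e-10 and 6.08e-08). Rims1, a full-length RIM that ties Rab3 to Munc13, was at 6.58, 6.94 and 5.26 CPM in the GFP libraries at 2 mM, 5.88, 5.84 and 7.47 in those at 11 mM, 5.05, 5.15 and 3.97 in the ChREBPβ libraries at 2 mM and 4.69, 3.95 and 4.63 in those at 11 mM. It fell, at log2 -0.42 ± 0.14 at 2 mM and -0.54 ± 0.13 at 11 mM (edgeR adjusted p = 0.0171 and 0.0025). The 2 mM call was lost without GFP replicate a (log2 -0.38, adjusted p = 0.0524), GFP replicate b (-0.33, 0.0929) or ChREBPβ replicate c (-0.29, 0.114). Cadps2, one of 2 CAPS priming proteins and with an E-box in the promoter printed above, was at 29.9, 32.3 and 33.2 CPM in the GFP libraries at 2 mM, 28.3, 31.97 and 31.7 in those at 11 mM, 20.2, 21.9 and 22.2 in the ChREBPβ libraries at 2 mM and 19.1, 18.6 and 19.8 in those at 11 mM. It fell, at log2 -0.57 ± 0.064 and -0.68 ± 0.063 (edgeR adjusted p = 2.93e-07 and 2.37e-08).

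The other CAPS gene, Cadps, was at 68.7 ± 1.29 against 58.95 ± 0.483 CPM at 2 mM and 56.4 ± 2.43 against 50.5 ± 0.913 at 11 mM, lower without overlap but by under 1.2-fold (log2 -0.22 and -0.16). Rims2, the RIM form best known in β-cells, had log2 fold changes of -0.19 and -0.019. Unc13a and Unc13b, which encode the Munc13 proteins that open syntaxin, lay between -0.21 and -0.046 and passed at neither level. The complexins, which clamp and assist SNARE complexes, did not pass either: Cplx1 had 0.24 at 2 mM and -0.036 at 11 mM, and Cplx2 was lower without overlap, at -0.22 and -0.21. With library totals, Cplx2 passed 1.2-fold at both levels (log2 -0.32 and -0.29), and Cadps (-0.32), Unc13a (-0.31) and Rims2 (-0.29) did at 2 mM. Cplx1 passed at 2 mM without ChREBPβ replicate c (0.29) or GFP replicate c (0.28).

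Nsf and Napa, which take spent SNARE complexes apart, did not pass. Nsf, the ATPase, averaged 90.9 ± 6.42 CPM for GFP and 87.9 ± 2.84 for ChREBPβ at 2 mM, and 94.5 ± 1.41 and 91.6 ± 3.38 at 11 mM, with overlapping viruses at both. Napa, its adaptor, had log2 values of -0.12 ± 0.05 and -0.069 ± 0.049. Its paralogs Napb and Napg, which are not among the 43 and were added here after their values were seen, fell at both levels, at log2 -0.27 ± 0.07 and -0.31 ± 0.066 for Napb (edgeR adjusted p = 0.00281 and 0.00061) and -0.49 ± 0.043 and -0.36 ± 0.043 for Napg (adjusted p = 8.26e-09 and 6.37e-07).

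Of the 2 phosphatase-like proteins of the granule membrane, 1 fell. Ptprn (IA-2), an autoantigen of type 1 diabetes without phosphatase activity, was at 849.7, 887 and 952 CPM in the GFP libraries at 2 mM, 779, 765 and 794 in those at 11 mM, 485, 473 and 488 in the ChREBPβ libraries at 2 mM and 438, 436 and 416 in those at 11 mM. The lowest GFP library was above the highest ChREBPβ library by a wide margin, and Ptprn was 1.86-fold lower at 2 mM (log2 -0.90 ± 0.042, adjusted p = 5.4e-13 by edgeR) and 1.81-fold lower at 11 mM (log2 -0.86 ± 0.042, adjusted p = 1.52e-12). Its paralog Ptprn2 (phogrin) was at 893 ± 20.03 and 859 ± 3.39 CPM at 2 mM, and 792 ± 11.3 and 830.0 ± 13.1 at 11 mM, with log2 values of -0.057 ± 0.035 and 0.068 ± 0.035 (adjusted p = 0.171 and 0.112).

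Glucose itself lowered several of the genes in cells with GFP. Of the 42, 13 fell from 2 to 11 mM (31.0%, beside 10.0% of all genes) and 2 rose (4.76%, beside 10.2%), with a median log2 fold change of -0.17 (all genes -0.0024). With no minimum on the fold change 24 passed (57.1%, beside 34.3%), and 0 reached 2-fold, where 2.00% of all genes did. The GFP libraries enter both this comparison and those of ChREBPβ with GFP, so the values are given side by side and not counted together. Rab3b and Rab27a fell most, at log2 -0.81 ± 0.052 and -0.77 ± 0.087 (edgeR adjusted p = 6.69e-10 and 1.3e-06). Rph3al fell, at log2 -0.51 ± 0.048 and Stxbp3 fell at -0.48 ± 0.08 (edgeR adjusted p = 1.59e-07 and 0.000113), beside -0.25 and -0.44 with ChREBPβ at 2 mM. Syt13 (-0.38), Rab3c (-0.36), Syt3 (-0.33), Vamp3 (-0.30), Vamp8 (-0.30), Stx3 (-0.30), Cadps (-0.28), Rab3d (-0.28) and Stxbp2 (-0.26) fell less. Of these, Stxbp2 lay at the 1.2-fold minimum and was under it in 9 of the 12 fits that left out a library (-0.26 to -0.21). Stx3 was under it without GFP replicate c at 11 mM (-0.25) or a at 2 mM (-0.26), Rab3d without GFP replicate c at 11 mM (-0.26) or at 2 mM (-0.25), Cadps without GFP replicate a at 11 mM (-0.26) and Syt3 without GFP replicate c at 2 mM (-0.25). Rab3a (-0.24), Rims2 (-0.24) and Sytl5 (0.32) did not pass with all libraries, but did without some of them: Rab3a without GFP replicate c at 11 mM (-0.28) or a at 2 mM (-0.27), Rims2 without GFP replicate b at either level (-0.30), and Sytl5 without GFP replicate a at 11 mM (0.42) or at 2 mM (0.49). Syt4 rose by log2 0.54 ± 0.05 and Cplx1 by 0.35 ± 0.062 (edgeR adjusted p = 1.06e-07 and 0.000208).

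Several genes with a large response to ChREBPβ had a small one to glucose in GFP cells. Doc2b had a log2 fold change of -0.078 ± 0.20, Rims3 of 0.064 ± 0.065, Cadps2 of -0.055 ± 0.063 and Snap25 of -0.12 ± 0.047. Sytl4 and Ptprn were lower at 11 mM without overlap, at -0.21 ± 0.036 and -0.20 ± 0.042, under 1.2-fold. Rab27b was the only Rab of the 6 with a positive value, 0.18 ± 0.17 (adjusted p = 0.444).

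With ChREBPβ, 4 of the 42 fell from 2 to 11 mM (9.52%, beside 2.88% of all genes) and 0 rose, where 0.988% of all genes did; 1 other gene, Syt4, had a positive change that passed the adjusted p (0.25 ± 0.048, adjusted p = 0.0024) that was under 1.2-fold. Syt4 passed without ChREBPβ replicate a at 11 mM (0.26), replicate b at 11 mM (0.28) or replicate b at 2 mM (0.28). Stx1a, at -0.25 ± 0.049 (adjusted p = 0.00266), was under the minimum too, and passed as lower without ChREBPβ replicate b at 11 mM (-0.28) and with scaling by library totals (-0.27). The median of the 42 was -0.092 (all genes 0.003), 12 passed with no minimum on the fold change (28.6%, beside 7.50% of all genes), and 0 reached 2-fold (beside 0.191%). The genes were Rab3b (log2 -0.59 ± 0.053, edgeR adjusted p = 9.76e-07), Rph3al (-0.37 ± 0.048, adjusted p = 5e-05), Rab27a (-0.35 ± 0.092, adjusted p = 0.0223) and Stxbp3 (-0.29 ± 0.079, adjusted p = 0.0289). These 4 also fell with glucose in GFP cells, a comparison that shares no library with this one. The same overlap was not counted over all genes. Rab3b and Rph3al passed in all 12 fits that left out a library. Rab27a did not pass without ChREBPβ replicate b at 11 mM (log2 -0.34, adjusted p = 0.0833), replicate c at 11 mM (-0.33, 0.0933) or replicate c at 2 mM (-0.26, 0.193). Stxbp3 did not pass in 5 of them, with values from -0.25 to -0.32.

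**Figure D4:**
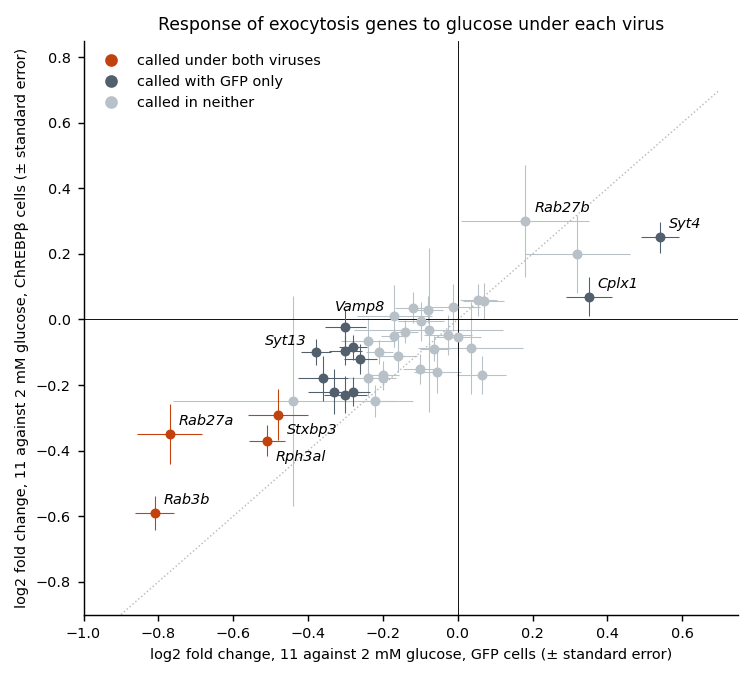
Log2 fold change of 11 against 2 mM glucose in GFP cells (x axis) and in ChREBPβ cells (y axis), each ± standard error, for the 42 tested exocytosis genes. The dotted line marks equal change; Rab3b lies lowest on both axes at -0.81 and -0.59, and Syt4 lies farthest right at 0.54 with 0.25 in ChREBPβ cells.

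Whether the effect of ChREBPβ differed between the glucose levels was tested as an interaction, the log2 fold change with ChREBPβ at 11 mM minus that at 2 mM. A positive difference passed for 3 of the 42 (7.14%, beside 1.56% of all genes) and a negative one for 1 (2.38%, beside 4.74%), with a median of 0.079 (all genes -0.0064). With no minimum on its size 5 passed (11.9%, beside 8.07%), and with a minimum of 2-fold 0 did (beside 0.736%). Rab27a had 0.42 ± 0.13 (edgeR adjusted p = 0.0494), Syt13 0.28 ± 0.056 (adjusted p = 0.00388) and Vamp8 0.28 ± 0.077 (adjusted p = 0.0295), so the fall with ChREBPβ was larger at 2 mM for each. Syt4 had -0.29 ± 0.069 (adjusted p = 0.0124), so its rise was larger at 2 mM as well. For Cplx1 the value of -0.28 ± 0.085 did not pass (adjusted p = 0.0511), though it did without ChREBPβ or GFP replicate c at 2 mM (-0.32 in both), and the Rab3d value of 0.19 ± 0.053 (adjusted p = 0.0298) was under 1.2-fold. None of the 4 calls stood in all 12 fits that left out a library. Syt4 was under 1.2-fold without GFP replicate b at 11 mM (-0.25), and Syt13 without GFP replicate b at 11 mM (0.25), GFP replicate b at 2 mM (0.26) or ChREBPβ replicate b at 2 mM (0.26). Rab27a did not pass in 9 of the 12, with values from 0.34 to 0.45 and adjusted p from 0.0546 to 0.139. Vamp8 did not pass in 8, with values from 0.24 to 0.29 and adjusted p from 0.0518 to 0.091.

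Another 64 genes of the exocytosis machinery (further paralogs, active zone scaffolds, Rab regulators and the exocyst) were listed for comparison, of which 56 were tested. With ChREBPβ at 2 mM, 17 of the 56 fell (30.4%, beside 23.2% of all genes) and 7 rose (12.5%, beside 21.0%), with a median log2 of -0.13. At 11 mM, 16 fell (28.6%, beside 19.1%) and 11 rose (19.6%, beside 14.3%), with a median of -0.089. Among these, Syt16 fell, at log2 -1.45 ± 0.14 at 2 mM and -1.08 ± 0.14 at 11 mM (edgeR adjusted p = 2.79e-08 and 1.83e-06). The scaffolds Erc2, at -0.86 ± 0.14 and -1.12 ± 0.14, and Pclo (piccolo), at -0.92 ± 0.14 and -0.45 ± 0.14, fell at both levels too, with overlapping groups for Pclo at 11 mM. Syt10 rose, with 2.35 ± 0.299 CPM for GFP against 3.78 ± 0.475 for ChREBPβ at 2 mM and 2.32 ± 0.374 against 4.64 ± 0.698 at 11 mM (log2 0.71 ± 0.17 and 0.99 ± 0.15). Stxbp6, an inhibitor of SNARE assembly, and Rabif, a factor that binds Rab GTPases, passed at 11 mM alone, at log2 1.80 ± 0.46 and -1.55 ± 0.47, but on 2 to 32 and 3 to 13 counts a library. Positive interactions passed for 2 of the 56 (3.57%, beside 1.56% of all genes) and negative ones for 0 (beside 4.74%). With glucose under GFP, 10 of the 56 fell (17.9%, beside 10.0% of all genes) and 1 rose (1.79%, beside 10.2%). Under ChREBPβ, 4 fell (7.14%, beside 2.88%) and 1 rose (1.79%, beside 0.988%).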

How the data were processed

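RNA of INS-1 832/13 cells was amplified with the NuGEN Ovation RNA-Seq System V2 before sequencing, per the labels. The authors deposited raw read counts per gene, which are not normalized, and means of each group, which were not used. The submitters' processing notes name the Rnor 6.0 build and edgeR; aligner, counter and strand setting are not given in the sources used here. In RefSeq (GRCr8), 20 of the 43 genes overlap another gene, 6 of them a protein-coding one. One entry without a gene name (0.0043% to 0.00601% of counts) was left out.

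Counts were filtered with filterByExpr, which kept 14669 genes, scaled with TMM (factors 0.958 to 1.06) and fitted across all 12 libraries with edgeR 4.0.16 (quasi-likelihood test) in R 4.3.3. The TMM factors split by virus, at 1.014 to 1.057 for GFP and 0.9581 to 0.9767 for ChREBPβ. Calls of ChREBPβ against GFP near 1.2-fold therefore depend on the scaling. The use of edgeR and the minimum of 1.2-fold follow the study's methods; the filter, the scaling, the test within edgeR and the threshold on adjusted p were chosen here. Adjusted p-values are Benjamini-Hochberg values over all tested genes within a comparison. Levels of different genes were not compared, since transcript lengths were not used here, and proteins were not compared either. The exocytosis genes, lists and tests were chosen with earlier results of these data known. Values are printed in every library for the 20 genes with the largest passing change in any of the 4 comparisons and for those passing in the interaction. For the wider list, the 6 passing genes with the largest change with ChREBPβ are named. The study describes these values as coming from independent experiments, but not how the replicate letters relate to them. The limit for 0 counts covers counting error only. Over 18 pairs with the same letter, correlations of deviations from the group means ran from -0.114 to 0.064. Pairs with different letters ran from -0.087 to 0.159. The letters were therefore not used as pairs in the main fit, though these values cannot show how the experiments were arranged. The scripts were tested on simulated data. Alternatives were DESeq2 1.42.0, other scalings, filters and fold minimums, fits of the compared groups only, a block for the replicate letter and leaving out each library.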

Additional observations from a re-analysis of the deposited data

Results flagged for a closer look

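For 4 of the exocytosis genes, the effect of ChREBPβ at 11 mM passed as different from that at 2 mM glucose. This used edgeR's test of the difference itself, with 3 libraries in each of the 4 groups. A positive difference passed for 7.14% of the 42 tested genes (beside 1.56% of all genes) and a negative one for 2.38% (beside 4.74%). None of the 4 calls stood in all 12 fits that left out a library. Rab27a also did not pass in edgeR with the replicate letter as a block (adjusted p = 0.0679). The difference in log2 fold change (11 minus 2 mM) was 0.42 for Rab27a, 0.28 for Syt13 and 0.28 for Vamp8, which all fell more at 2 mM, and -0.29 for Syt4, which rose more at 2 mM. The same difference can be read as a smaller response to glucose with ChREBPβ than with GFP: from 2 to 11 mM, Rab27a changed by -0.77 with GFP and -0.35 with ChREBPβ, Syt13 by -0.38 and -0.099, Vamp8 by -0.30 and -0.023, and Syt4 by 0.54 and 0.25.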

How the results depend on the processing

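No passing call changed direction under any alternative. Among values that did not pass, the sign changed under at least 1 alternative for 31 of 210 pairs of gene and comparison; Doc2b, for example, ran from -0.23 to 0.24 for glucose with ChREBPβ. Over all 42 genes at the 1.2-fold minimum, the alternatives removed 60 calls and added 39. For the 21 genes with values in every library, other fold minimums included, 2055 values kept their side of the threshold, 106 no longer passed and 23 newly passed. Scaling by library totals moved the median log2 fold change of the exocytosis genes to -0.34 at 2 mM and -0.27 at 11 mM, beside a shift of -0.099 and -0.084 in the median of all genes. Leaving out 1 library gave a median of -0.27 (without GFP replicate a at 2 mM) to -0.23 at 2 mM, -0.23 to -0.17 at 11 mM, -0.19 to -0.15 for glucose with GFP, -0.11 to -0.072 for glucose with ChREBPβ and 0.064 to 0.11 for the interaction. In the same order, it gave 20 to 23, 18 to 20, 13 to 15, 2 to 5 and 1 to 4 genes that passed. With no minimum fold change, 35 genes passed at 2 mM, 29 at 11 mM, 24 for glucose with GFP, 12 for glucose with ChREBPβ and 5 in the interaction; the shares of all genes that passed were 58.7%, 49.7%, 34.3%, 7.50% and 8.07%. With a minimum of 2-fold, 2, 1, 0, 0 and 0 passed. Calls that stood in all 12 fits without a library numbered 20 of 22 at 2 mM, 18 of 19 at 11 mM, 10 of 15 for glucose with GFP, 2 of 4 for glucose with ChREBPβ and 0 of 4 in the interaction. The fall of Syt3 at 11 mM was under 1.2-fold with RLE size factors, DESeq2 (both -0.25) and a minimum of 10 counts in every library (-0.26). The causes were not tested.

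With the replicate letter as a block (replicate block), 22, 19, 15 and 4 genes passed in the comparisons of groups and 4 in the interaction, where Cplx1 (log2 -0.28, adjusted p = 0.05 after rounding up) took the place of Rab27a (0.41, adjusted p = 0.0679). Of the 18 same-letter pairs, 0 had a correlation over 0.1. That cannot show whether libraries of the same letter came from the same experiment. Depth limits the rarest genes: Doc2b, Sytl1 and Rab27b rest on 16 to 100, 13 to 39 and 35 to 134 counts a library.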
